A study of Mus musculus with 39 samples.

Results

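The inward rectifier (Kcnj), K2P leak (Kcnk), calcium-activated (Kcnma, Kcnmb, Kcnn) and sodium-activated (Kcnt) potassium channel genes were followed through newborn and adult lumbar dorsal root ganglia (DRG), the ganglia beside the spinal cord that hold the cell bodies of sensory neurons. They were chosen by name: every probe set of the Affymetrix Mouse Genome 430 2.0 array whose only annotated symbol begins with Kcnj, Kcnk, Kcnma, Kcnmb, Kcnn or Kcnt followed by a number. This gave 71 of the 45037 probe sets analysed, for 39 of the 18193 genes that a probe set names alone. A gene with several probe sets is represented below by the one with the highest mean over the 39 arrays, and the others are named where they differ. The mean log2 value of 40 of the 71 probe sets reached the median of the array in at least 1 group, and that of the other 31 was below it in every group.

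The series asks how the neurotrophin NT3, supplied by muscle and sensed through its receptor TrkC, shapes gene expression in proprioceptors, the neurons that report muscle length and tension. All newborn animals carried the TrkCGFP reporter, on a mixed 129/C57Bl6 background, and TrkC+ (GFP-bearing) and TrkC- (GFP-negative) cells were sorted by flow cytometry at postnatal day 0. In the paper's staining of newborn L5 ganglia, nearly all GFP-bearing cells held TrkC, but many TrkC-expressing cells lacked GFP. The sign TrkC- thus names cells without GFP, not cells without TrkC. Pooled L1 to L6 ganglia came from wild type, Bax-/-, NT3-/-;Bax-/- and mlcNT3 mice, with 2 arrays for each genotype and TrkC sign and about 350 cells an array. Bax is needed for the death of neurons that lose trophic support, so that the double mutant keeps neurons deprived of NT3 and Bax-/- is its control; mlcNT3 is a transgene that drives NT3 from a myosin light chain promoter in skeletal muscle. Wild-type ganglia of levels L1 and L5 were sorted in the same way with about 100 cells an array, on 2 arrays for L1 TrkC+ and 3 for each of the other groups. Adult L1 and L5 ganglia, from male C57Bl6 mice kept for 5 weeks with or without a running wheel from the age of 5 weeks, were profiled whole, on 3 arrays a group; no GFP sort is described for them, and the TrkC sign in their titles follows the level and was not used. L5 ganglia serve the limb and L1 ganglia mainly the trunk. The labels do not say whether the arrays of a group came from separate animals, so each p-value measures the spread between arrays only.

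Potassium channels of these families set the resting potential and shape how a neuron repolarises. Inward rectifiers pass current more readily into the cell and some are opened by G protein subunits or closed by ATP. K2P channels carry the background leak and several respond to stretch, heat, lipids or acid. Channels of the Kcnma, Kcnn and Kcnt genes open on calcium or sodium entry and limit repetitive firing. Accessory Kcnmb subunits tune the Kcnma channel. In sensory ganglia, these currents differ between proprioceptors, touch receptors and nociceptors, and satellite glia carry their own inward rectifier.

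The proprioceptor markers followed the sort in wild-type arrays, though they include Ntrk3, the gene of TrkC, whose regulatory elements drive the GFP. The summed value of 5 measured proprioceptor markers was 13060 to 14090 in TrkC+ arrays and 326 to 354.2 in TrkC- arrays. Other markers were less well separated. The wild-type nociceptor sum was 14170 to 15750 in TrkC+ and 26400 to 27930 in TrkC- arrays, and the glial sum 9142 to 10610 and 12960 to 13320. The NT3-/-;Bax-/- arrays of both signs stood apart. In the TrkC+ arrays of this genotype, the proprioceptor sum was 4645 to 6571 beside 14740 to 15900 in Bax-/-, the nociceptor sum 5911 to 8335 beside 15580 to 16130, and the neuronal sum 25870 to 29470 beside 34920 to 38000. In NT3-/-;Bax-/- TrkC- arrays, the summed glial markers reached 31790 to 37340, beside 14700 to 15690 in Bax-/- TrkC- arrays, and the fibroblast sum reached 17500 to 28550 beside 1588 to 2552. The endothelial sum was 2739 to 2831 there beside 567.3 to 664.8, and the neuronal sum 19780 to 21310 beside 26650 to 29880. The proprioceptor sum was also higher in these TrkC- arrays, at 1096 to 1424 beside 443.1 to 449.4. The sum of 3 cutaneous mechanoreceptor markers was lower, at 3177 to 3561 beside 5578 to 7530. Correlations between arrays of a group, across probe sets, lay between 0.9716 and 0.9961. In these bulk samples, fewer cells of a type and less RNA per cell cannot be told apart.

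Promoter sequences were drawn from RefSeq (GRCm38.p6) for the genes on which the newborn results turn, each running from 250 bases before to 50 bases after a transcription start. Kcnk1 and Kcnj3 were chosen because both fell steeply in TrkC+ cells without NT3, and Kcnk2 because it rose there. The Kcnk1 window is chr8:125994852-125995151 (plus strand), the Kcnj3 window chr2:55435720-55436019 (plus strand), and the Kcnk2 window, 1 of 4 of that gene, chr1:189343304-189343603 (minus strand). Capitals mark matches on either strand to ACCACA, the core bound by Runx factors, or to CCGGAAG, an ETS core, as factors of both families act in proprioceptors.
Kcnk1: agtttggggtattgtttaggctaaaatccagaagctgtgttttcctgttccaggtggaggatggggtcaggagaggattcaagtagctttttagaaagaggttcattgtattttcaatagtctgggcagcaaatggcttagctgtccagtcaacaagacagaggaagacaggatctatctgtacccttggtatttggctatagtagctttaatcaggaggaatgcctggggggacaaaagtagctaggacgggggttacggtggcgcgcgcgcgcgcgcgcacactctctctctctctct
Kcnj3: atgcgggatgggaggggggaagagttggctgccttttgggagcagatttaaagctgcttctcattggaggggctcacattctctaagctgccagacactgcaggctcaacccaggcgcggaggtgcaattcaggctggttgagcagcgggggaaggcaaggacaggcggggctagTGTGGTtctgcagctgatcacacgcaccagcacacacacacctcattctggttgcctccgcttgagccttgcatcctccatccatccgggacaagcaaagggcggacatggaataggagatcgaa
Kcnk2: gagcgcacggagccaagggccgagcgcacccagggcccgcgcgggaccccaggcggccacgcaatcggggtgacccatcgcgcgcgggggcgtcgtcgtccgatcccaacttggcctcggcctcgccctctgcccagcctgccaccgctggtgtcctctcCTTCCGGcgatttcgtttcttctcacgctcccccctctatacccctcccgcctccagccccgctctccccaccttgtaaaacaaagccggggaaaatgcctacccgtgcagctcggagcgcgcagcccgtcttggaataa
The Kcnk1 window held neither motif. The Kcnk2 window was shown because it alone of the 4 windows of that gene held a motif. Its match was the only ETS match among the 41 windows. The Runx core was present in 7 of 41 windows of the 32 channel genes with a RefSeq entry (17.1%), beside 16.8% of 32851 windows of all genes, and the ETS core in 1 of 41 (2.44%), beside 8.86%. Neither share says anything about binding.

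Kcnmb4 and Kcnmb4os2 are shown because both rose in TrkC+ cells without NT3. Kcnmb4 encodes an accessory beta subunit of the large-conductance calcium-activated channel, and Kcnmb4os2 is an RNA annotated on the opposite strand. The annotated gene spans overlap by 697 bases on chromosome 10. The starts used for the windows lie 360 bases apart, that of Kcnmb4 lying inside its span rather than at its end, and the windows chr10:116473474-116473773 (Kcnmb4, minus strand) and chr10:116472913-116473212 (Kcnmb4os2, plus strand) face each other. Capitals mark the 50 bases after each start.
Kcnmb4: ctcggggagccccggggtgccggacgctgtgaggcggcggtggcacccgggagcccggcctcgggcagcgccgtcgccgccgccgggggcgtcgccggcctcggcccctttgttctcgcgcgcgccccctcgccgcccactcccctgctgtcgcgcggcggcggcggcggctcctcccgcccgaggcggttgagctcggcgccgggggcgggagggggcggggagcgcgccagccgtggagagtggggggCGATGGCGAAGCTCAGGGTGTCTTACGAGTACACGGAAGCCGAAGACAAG
Kcnmb4os2: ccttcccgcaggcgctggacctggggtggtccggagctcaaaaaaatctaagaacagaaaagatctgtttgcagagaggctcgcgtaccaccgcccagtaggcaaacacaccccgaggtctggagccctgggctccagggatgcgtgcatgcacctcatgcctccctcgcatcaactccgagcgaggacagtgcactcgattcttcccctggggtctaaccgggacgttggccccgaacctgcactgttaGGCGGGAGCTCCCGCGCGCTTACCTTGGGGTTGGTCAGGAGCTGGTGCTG
The Kcnmb4 window held 48 CG pairs, more than 98.8% of all windows, and the Kcnmb4os2 window 19, more than 71.9%. The Kcnk1 and Kcnj3 windows held 10 each. The strand that each probe set reads was not checked, so the values of Kcnmb4 and Kcnmb4os2 are uncertain as measures of separate RNAs. The same holds for Kcnmb4os1, which lies inside Kcnmb4.

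In wild-type newborn ganglia, TrkC+ and TrkC- cells carried different potassium channel transcripts. Kcnk1 and Kcnk3 were higher in TrkC+ cells, and Kcnn2, Kcnt1, Kcnt2, Kcnk12 and Kcnmb1 were higher in TrkC- cells. Of the 71 probe sets, 4 were higher and 8 lower in TrkC+ cells at a Benjamini-Hochberg adjusted p under 0.05 in limma, or 16.9% beside 8.95% of all probe sets (5.12% higher and 3.83% lower). The median log2 difference was -0.17 over the channel probe sets and -0.07 over all probe sets.

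Among the leak channels, Kcnk1, a weakly conducting K2P subunit, gave log2 values of 10.53 and 10.69 in the wild-type TrkC+ arrays and 6.11 and 5.95 in the TrkC- arrays. The log2 difference was 4.58 ± 0.37 (SE, n = 2 arrays a group, limma adjusted p = 1.29e-05), or 23.9-fold, and its second probe set differed by 3.09. No other channel gene differed by as much between wild-type TrkC+ and TrkC- cells. Kcnk3, an acid-sensitive leak channel, was at 8.83 and 8.77 against 7.48 and 7.69, a log2 difference of 1.22 ± 0.20 (adjusted p = 0.00192). Its other probe sets, both below the array median, gave -0.32 and 0.38 and were not called. Kcnk12, a K2P subunit that passes little current alone, went the other way, with 6.18 and 6.31 in TrkC+ and 8.32 and 7.94 in TrkC- arrays (-1.89 ± 0.24, adjusted p = 0.000302). The groups did not overlap for any of these genes. With 2 arrays a group this adds no support, as a Kcnj15 probe set at 0.12 (limma adjusted p = 0.745) did not overlap either. Here and below, the share of all probe sets without overlap was not counted.

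Of the 12 genes for calcium- and sodium-activated channels, their subunits and the Kcnmb4 antisense RNAs, 5 were lower in TrkC+ cells on their standing probe set and 7 did not pass the test. Over all probe sets, 3.83% were lower and 8.95% passed in either direction. The 5 include Kcnmb1 and Kcnmb4, whose limits are given below. Kcnn2, a small-conductance channel of the afterhyperpolarisation, was at 7.51 and 7.20 in TrkC+ and 10.20 and 10.38 in TrkC- arrays, a log2 difference of -2.94 ± 0.43 (adjusted p = 0.000823). Kcnt1, which encodes the sodium-activated channel Slack, was at 8.32 and 8.26 against 10.77 and 10.57 (-2.38 ± 0.36, adjusted p = 0.00116), and its other probe sets differed by -2.21 and -2.78. Its relative Kcnt2 was at 5.64 and 5.20 against 7.40 and 7.43 (-1.99 ± 0.31, adjusted p = 0.00132). Every TrkC- array was above every TrkC+ array for each of them. Kcnmb1, an accessory subunit known from smooth muscle, was dimmer than the array median in both groups and lower in TrkC+ cells by 1.54 log2 units on its standing probe set, whereas its probe set brightest in the newborn arrays differed by -0.67 with an adjusted p of 0.0736. The mural sum, at 588.9 to 735.6 in TrkC+ and 1926 to 2336 in TrkC- arrays, and the fibroblast sum, at 548.8 to 682.9 and 2417 to 2514, moved the same way, and their part was not tested. The difference for Kcnmb4 was -0.69 ± 0.19 (adjusted p = 0.0439) and lost significance on leaving out each of 12 of the 16 arrays in turn. A Kcnma1 probe set, 1.43 higher in TrkC+ cells (adjusted p = 0.0489), lost it on leaving out each of 14.

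**Figure D1:**
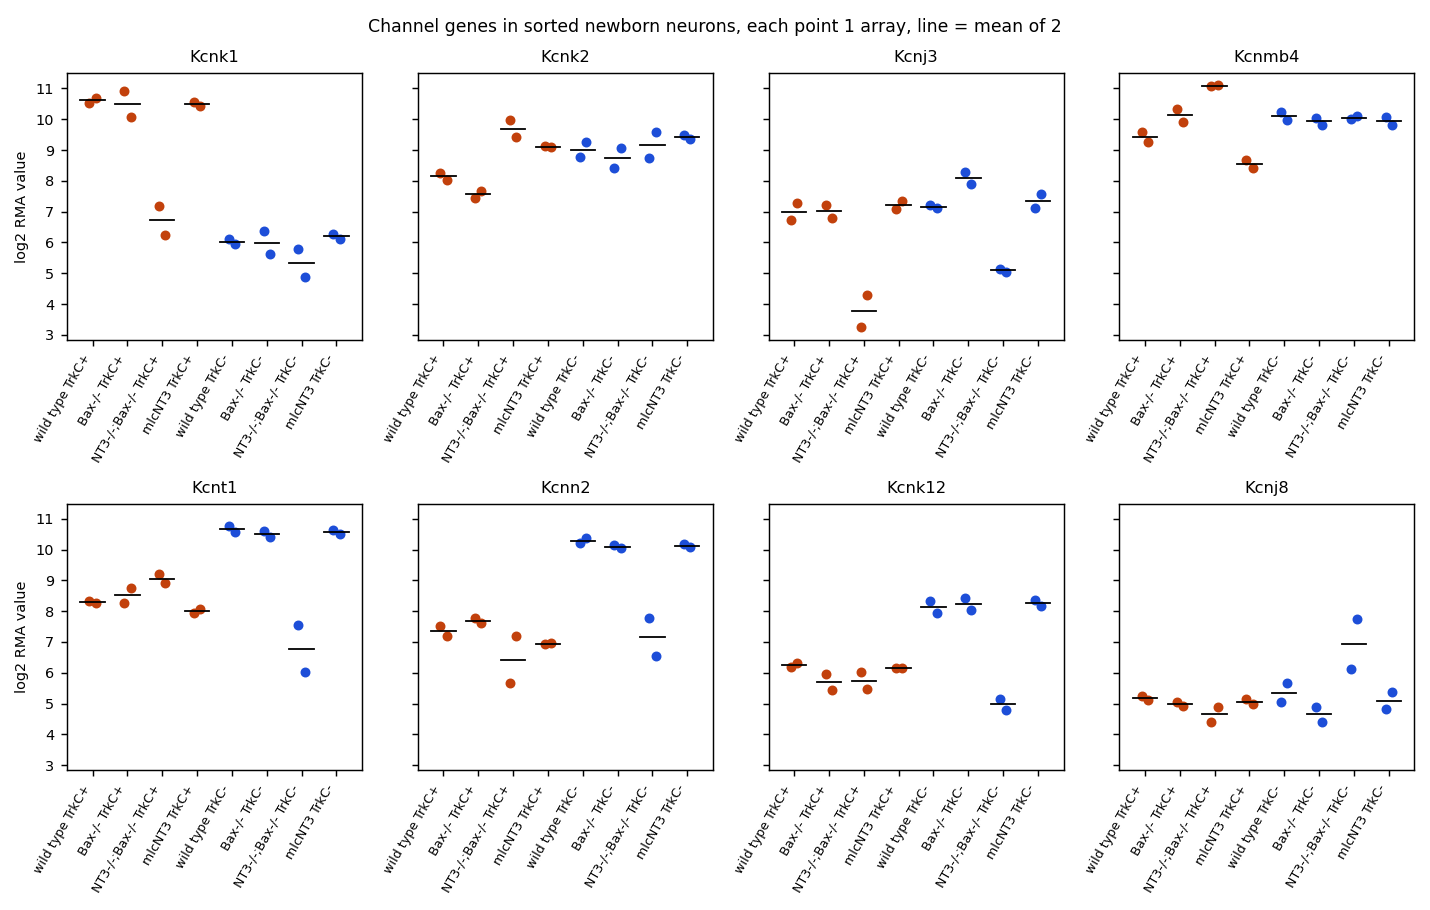
Log2 value (vertical axis) of 8 channel genes in each of the 16 pooled newborn arrays, by genotype and TrkC sign; points are arrays and lines the mean of the 2 arrays of a group. Kcnk1 stands at 10.06 to 10.91 in the wild-type, Bax-/- and mlcNT3 TrkC+ arrays and at 7.18 and 6.25 in the NT3-/-;Bax-/- TrkC+ arrays.

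The L1 and L5 arrays, made from other sorted cells, gave the sign difference of Kcnk1, Kcnk3, Kcnn2, Kcnt1 and Kcnk12 again at each level. At L1, 4 probe sets were higher and 13 lower in TrkC+ cells (23.9% beside 17.9% of all probe sets, of which 9.03% higher and 8.92% lower). At L5, 8 were higher and 9 lower (23.9% beside 19.9%, of which 9.91% higher and 10% lower). Kcnk1 was at 11.03 and 11.14 in the L1 TrkC+ arrays and 5.82, 6.09 and 6.98 in the L1 TrkC- arrays, and at 10.86, 11.17 and 11.10 against 5.65, 5.53 and 7.01 at L5. The log2 differences were 4.78 ± 0.42 and 4.98 ± 0.37 (adjusted p = 1.43e-05 and 4.32e-06). One TrkC- array was higher than the rest of its group at each level and still far below the TrkC+ arrays.

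Kcnn2 differed by -2.42 ± 0.20 at L1 and -2.12 ± 0.18 at L5, Kcnt1 by -2.14 ± 0.16 and -2.20 ± 0.14, and Kcnk12 by -1.86 ± 0.28 and -1.46 ± 0.25, each with an adjusted p under 0.05. Kcnk3 was higher in TrkC+ cells by 0.74 ± 0.16 and 0.62 ± 0.14, and the L1 value lost significance without the second L1 TrkC+ array (adjusted p = 0.0504). Kcnt2 passed the test at L5 (-2.13 ± 0.43) and was -0.50 with an adjusted p of 0.561 at L1. Kcnmb4, lower in pooled wild-type TrkC+ cells, had the opposite order at L1, with 10.06 to 10.12 in TrkC+ and 9.785 to 9.87 in TrkC- arrays. At L5 Kcnmb4 was at 9.45 to 9.68 against 9.78 to 9.83. Kcnmb4os2 was at 7.83 to 7.86 against 7.23 to 7.56 at L1.

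Further members passed the test at 1 or both levels and not in the pooled wild-type cells. Kcnmb2, a beta subunit that inactivates the large-conductance channel, was lower in TrkC+ cells by 1.42 log2 units at L1 (adjusted p = 0.000574) and 0.61 at L5 (adjusted p = 0.0375, lost on leaving out each of 7 of 11 arrays). Kcnj3, a subunit of the G protein-gated inward rectifier, was lower by 1.13 at L1 (adjusted p = 0.00229), and its value at L5 was -0.52 (adjusted p = 0.0658). Kcnk2, the stretch- and lipid-sensitive TREK-1, was at 7.72 and 6.87 against 9.40, 9.14 and 9.39 at L1 (-2.01 ± 0.47, adjusted p = 0.0118), a call lost without the second L1 TrkC+ array (adjusted p = 0.114). At L5 Kcnk2 differed by -1.22 (adjusted p = 0.0665), with TrkC+ arrays from 6.43 to 8.39 and TrkC- arrays from 8.61 to 9.16. Kcnk4, its stretch-sensitive relative, was lower by 0.65 at L1 (adjusted p = 0.0151), lost without the first L1 TrkC+ array or the second L1 TrkC- array, and the ATP-sensitive subunit Kcnj11 by 0.46 (adjusted p = 0.0362), lost on leaving out each of 6 of 11 arrays. The second Kcnj11 probe set was 0.23 higher in TrkC+ cells at L1 and was not called. The test of the difference between the levels called 0 of 71 members in limma (0.0666% of all probe sets). At an unadjusted p under 0.05 it had 12 members (6.8% of all probe sets). The calls at 1 level above are therefore not shown to be particular to that level. Endothelial markers were also lower in TrkC+ cells, 5 of 7 at L1 and 7 of 7 at L5, and glial markers 4 of 8 at each level. The fibroblast sum was 643.5 to 825.4 in L1 TrkC+ and 4651 to 4758 in L1 TrkC- arrays, and 851.3 to 1390 against 4659 to 6578 at L5. The mural sum was 668.9 to 875.7 against 2376 to 4022 at L1 and 635.8 to 749.8 against 2915 to 3558 at L5. The part of these cells in the channel differences was not tested.

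**Figure D2:**
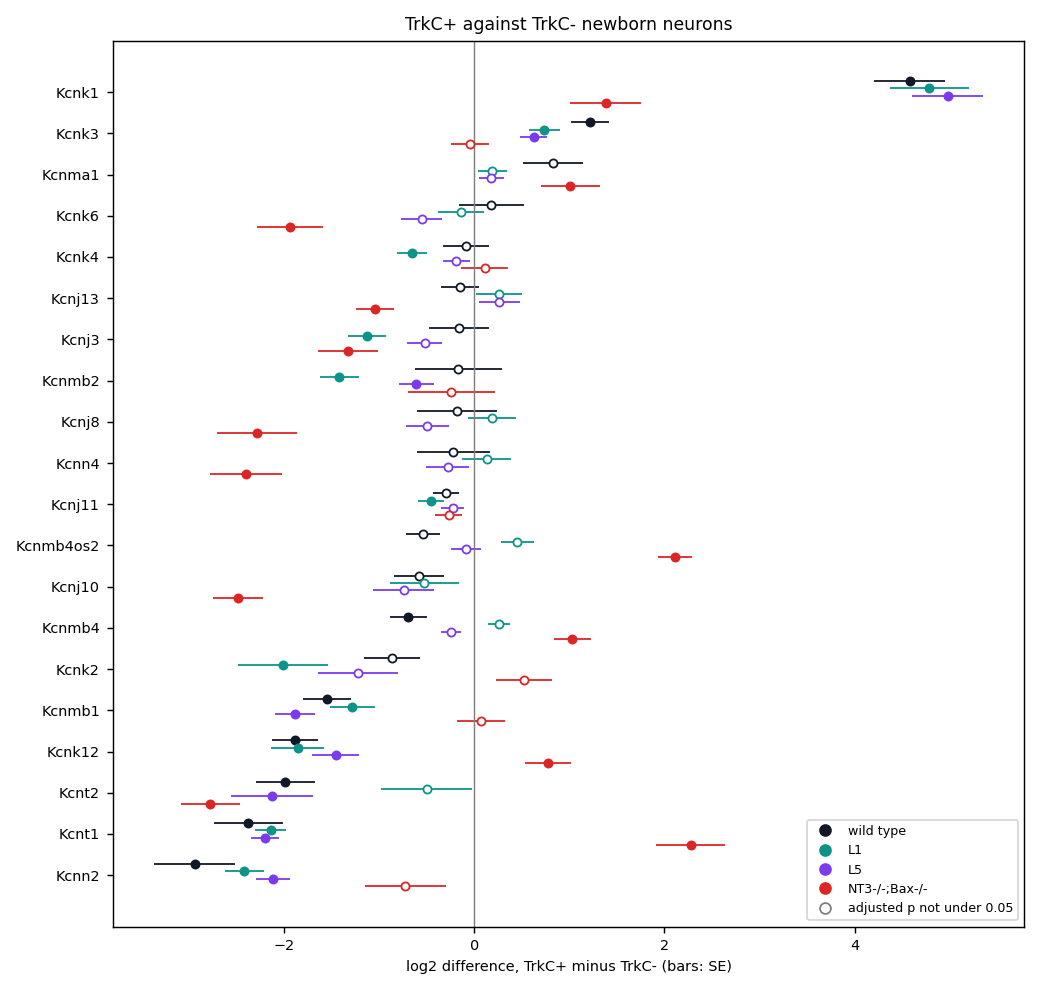
TrkC+ minus TrkC- log2 difference, with its standard error, for the channel genes called in wild-type pooled, L1, L5 or NT3-/-;Bax-/- cells; open symbols have an adjusted p not under 0.05. Kcnk1 lies at 4.58, 4.78 and 4.98 in the wild-type sets and at 1.38 in NT3-/-;Bax-/- cells, and Kcnt1 moves from -2.38 in wild type to 2.28.

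Removing NT3 lowered several channel transcripts in TrkC+ cells and raised a few. Against Bax-/- TrkC+ cells, NT3-/-;Bax-/- TrkC+ cells had 6 probe sets higher and 10 lower, or 22.5% beside 18.2% of all probe sets (9.05% higher and 9.17% lower), with a median log2 difference of -0.10 beside 0.01. Without the first Bax-/- TrkC+ array, 8 of the 71 passed, and without the first NT3-/-;Bax-/- TrkC+ array, 10. The decreases were led by Kcnk1, Kcnj3, Kcnn1 and Kcnt2, and the increases by Kcnk2, Kcnmb4os2 and Kcnmb4.

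Kcnk1 was at 10.91 and 10.06 in the Bax-/- TrkC+ arrays and 7.18 and 6.25 in the NT3-/-;Bax-/- TrkC+ arrays, and fell by 3.77 on the log2 scale (SE 0.37, adjusted p = 4.70e-05). Kcnj3 was at 7.23 and 6.80 against 3.24 and 4.29, a difference of -3.25 ± 0.32 (adjusted p = 4.39e-05). This rests on 1 probe set: the 3 others of Kcnj3 differed by -0.05, 0.09 and 0.10 and were not called. Kcnn1, a small-conductance calcium-activated channel, was at 9.32 and 7.69 against 5.52 and 6.05 (-2.73 ± 0.56, adjusted p = 0.00547). Its second probe set gave -1.42 with a limma adjusted p of 0.0525. The Bax-/- arrays of Kcnn1 were far apart, and the call was lost without the first of them. Kcnt2, dimmer than the array median in both groups, was at 5.86 and 5.46 against 3.33 and 3.49 (-2.25 ± 0.31, adjusted p = 0.000402). In each of these genes both mutant arrays lay below both control arrays. The proprioceptor, nociceptor and neuronal marker sums were lower in the same mutant arrays, as given above, and their part in these decreases was not tested.

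Smaller decreases were those of the strong inward rectifier Kcnj12 (-1.44), the intermediate-conductance calcium-activated channel Kcnn4 (-1.41), and the stretch- and heat-sensitive K2P channels Kcnk10 (-1.19) and Kcnk4 (-1.08), with adjusted p from 0.00804 to 0.0256. The second probe sets of Kcnk10 (-0.12, limma adjusted p = 0.758) and Kcnn4 (-0.33, limma adjusted p = 0.368) were not called. Kcnj12, Kcnk10 and Kcnk4 each lost significance without the first Bax-/- or the first NT3-/-;Bax-/- TrkC+ array, and Kcnn4 without the second of either group. Against wild-type TrkC+ cells, 6 of 71 probe sets were higher and 11 lower (23.9% beside 26% of all, of which 13.3% higher and 12.7% lower), with differences of -3.90 for Kcnk1, -3.24 for Kcnj3, -3.27 for Kcnn1, -2.04 for Kcnk10, -1.62 for Kcnk4 and -0.98 for Kcnk3. Against wild type, the second Kcnk10 probe set (-0.52) and the other Kcnk3 probe sets (-0.02 and -0.26) were not called. Against Bax-/-, Kcnk3 differed by -0.42 (adjusted p = 0.18), and against wild type Kcnn4 differed by -0.76 (adjusted p = 0.177). This comparison shares its mutant arrays with the one above.

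Kcnk2 rose, from 7.45 and 7.68 in Bax-/- to 9.98 and 9.41 in NT3-/-;Bax-/- TrkC+ arrays, by 2.13 ± 0.30 (adjusted p = 0.000458). Kcnmb4os2 went from 7.76 and 7.33 to 9.36 and 9.17 (1.72 ± 0.18, adjusted p = 6.13e-05) and Kcnmb4 from 10.35 and 9.92 to 11.07 and 11.10 (0.95 ± 0.19, adjusted p = 0.00499). No mutant array overlapped a control array in these 3 genes, which adds no support with so few arrays. The glial sum was lower in the mutant TrkC+ arrays, at 3326 to 7224 beside 10080 to 13590 in Bax-/-, and its part in these 3 genes was not tested.

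Kcnma1, the pore of the large-conductance calcium-activated channel, did not move as 1 unit across its 5 probe sets. In TrkC+ cells, 1 probe set went from 8.33 and 8.12 in Bax-/- to 6.10 and 7.54 without NT3 (-1.41, adjusted p = 0.0137), whereas another went from 6.59 and 7.80 to 8.32 and 8.83 (1.38, adjusted p = 0.0219). Each call was lost without the first Bax-/- array and, separately, without 1 of the mutant arrays. The standing probe set was at 8.36 and 8.32 against 7.27 and 8.12 and was not called. Which transcripts each probe set reads was not examined, so no direction is given for the gene in TrkC+ cells. In TrkC- cells, the 3 probe sets called all fell with NT3 loss, by 1.45, 1.62 and 1.81.

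**Figure D3:**
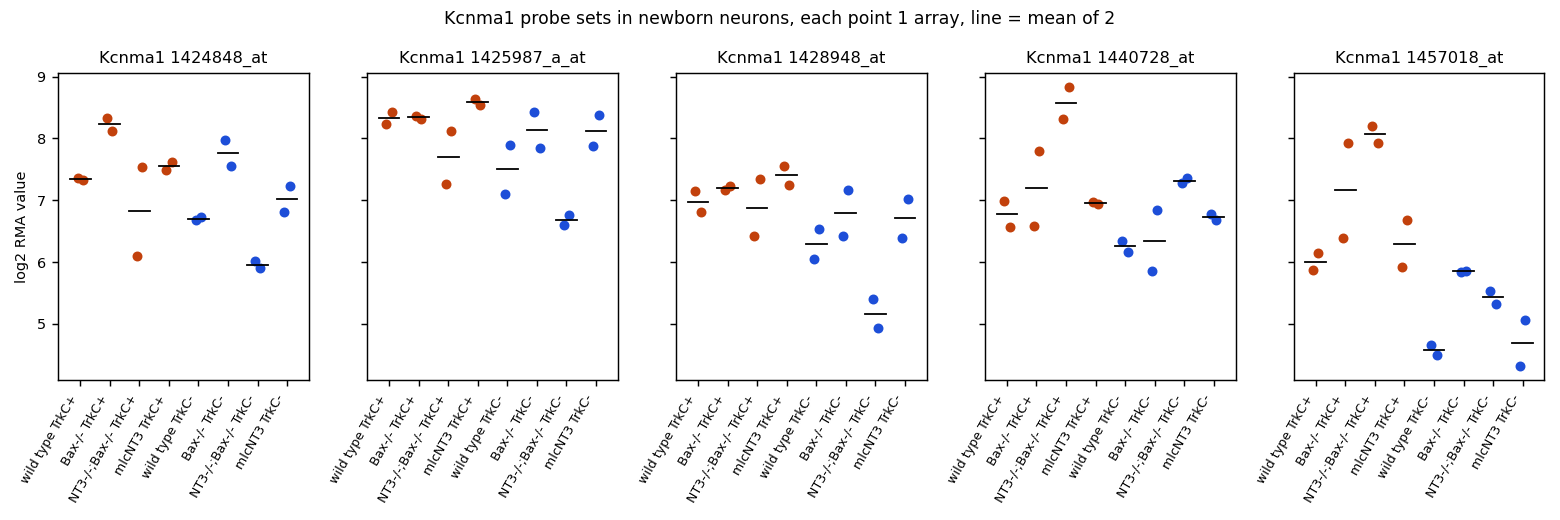
Log2 value (vertical axis) of the 5 Kcnma1 probe sets in each pooled newborn array, by genotype and TrkC sign; points are arrays. In TrkC+ cells, the probe set at 8.33 and 8.12 in the Bax-/- arrays and that at 6.59 and 7.80 moved in opposite directions without NT3, by -1.41 and 1.38.

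In TrkC- cells, the loss of NT3 came with 5 probe sets higher and 16 lower, or 29.6% beside 21.7% of all (9.91% higher and 11.8% lower), with a median log2 difference of -0.08 beside 0.01. The genes that fell included Kcnn2, Kcnt1, Kcnt2, Kcnk12 and Kcnmb1, each also lower in wild-type TrkC+ than TrkC- cells; Kcnmb4, lower there too, did not pass the test here. Kcnt1 was at 10.61 and 10.42 in Bax-/- and 7.55 and 6.01 in NT3-/-;Bax-/- TrkC- arrays (-3.74 ± 0.36, adjusted p = 5.04e-05), and all of its 3 probe sets fell. Kcnk12 was at 8.42 and 8.04 against 5.15 and 4.80 (-3.25 ± 0.24, adjusted p = 1.38e-05). Kcnn2 was at 10.14 and 10.03 against 7.78 and 6.53 (-2.93 ± 0.43, adjusted p = 0.000589). The mutant and control arrays did not overlap in any of the 3.

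Kcnj3 and Kcnn1 fell in TrkC- cells as well. Kcnj3 was at 8.29 and 7.90 against 5.15 and 5.04 (-3.00 ± 0.32, adjusted p = 8.46e-05; -0.41, -0.66 and -0.38 on its other probe sets, none called) and Kcnn1 at 9.79 and 8.09 against 5.52 and 6.12 (-3.13 ± 0.56, adjusted p = 0.00214). The difference between the TrkC+ and TrkC- effects was -0.25 for Kcnj3 (SE 0.45, adjusted p = 0.818) and 0.40 for Kcnn1 (SE 0.80, adjusted p = 0.836), intervals wide enough that unequal effects are possible. Kcnmb1 (-1.75), Kcnk4 (-1.73), Kcnk10 (-1.30) and Kcnt2 (-1.12) also fell in TrkC- cells; the last 2 lost significance without the first Bax-/- TrkC- array, Kcnk10 also without the first and Kcnt2 without the second mutant array.

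The 5 genes that rose in TrkC- cells did so in the arrays whose glial, fibroblast and endothelial markers were high. Kcnj8, the pore of the vascular ATP-sensitive channel, was at 4.89 and 4.42 in Bax-/- and 6.13 and 7.75 in NT3-/-;Bax-/- TrkC- arrays (2.29 ± 0.42, adjusted p = 0.0023), and Abcc9, its sulfonylurea receptor partner, rose by 3.59. Kcnj10, the inward rectifier of satellite glia, went from 7.36 and 7.55 to 9.08 and 8.60 (1.38 ± 0.26, adjusted p = 0.00298). Kcnk6, a K2P channel of endosomes and vessels, went from 4.73 and 4.27 to 7.29 and 5.93 (2.11 ± 0.34, adjusted p = 0.00118). Kcnj13, an inward rectifier of transporting epithelia, rose by 1.18, and Kcnn4 by 1.31, a call lost without the first Bax-/- or the first NT3-/-;Bax-/- TrkC- array. Beside them, 7 of 7 endothelial, 5 of 5 fibroblast, 3 of 6 mural and 5 of 8 glial markers were higher in the same comparison, and the macrophage sum was 911.2 in one mutant array and 24220 in the other; their part in these 5 genes was not tested. The nociceptor sum of the mutant TrkC- arrays was 8507 to 21420 beside 25030 to 26480, and its part in the fall of Kcnt1, Kcnk12 and Kcnn2 was not tested either.

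**Figure D4:**
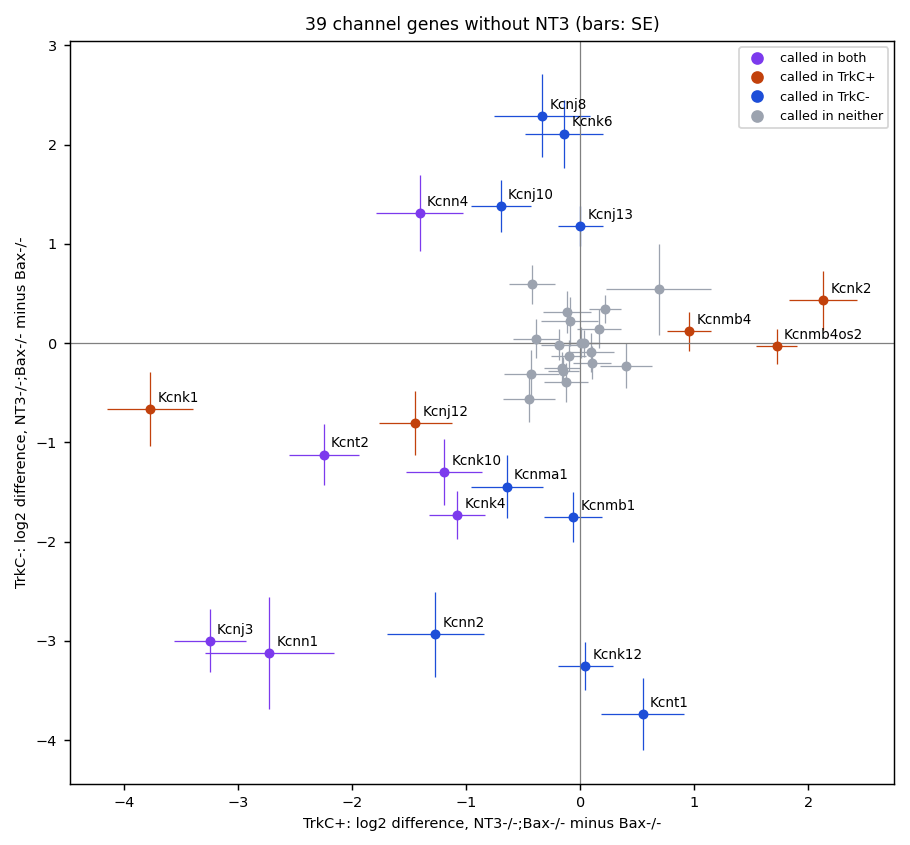
NT3-/-;Bax-/- minus Bax-/- log2 difference of the 39 channel genes in TrkC+ cells (horizontal axis) and TrkC- cells (vertical axis), with standard errors, coloured by where adjusted p is under 0.05. Kcnk1 lies at -3.77 and -0.66, Kcnk12 at 0.04 and -3.25, and Kcnj3 at -3.25 and -3.00.

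The test of the difference between the TrkC+ and TrkC- effects of NT3 loss called 14 of 71 probe sets, 7 in each direction (19.7% beside 9.65% of all, of which 4.53% higher and 5.13% lower). Kcnk1 fell more in TrkC+ than in TrkC- cells, by 3.11 ± 0.53 (adjusted p = 0.00307). Kcnt1 had a difference of 4.28 ± 0.51 (adjusted p = 0.000361) and Kcnk12 of 3.30 ± 0.34 (adjusted p = 0.00015), each with a fall in TrkC- cells and no call in TrkC+ cells. Kcnmb4os2 differed by 1.75 ± 0.25 (adjusted p = 0.00114), with effects of 1.72 in TrkC+ and -0.03 in TrkC- cells. Kcnmb4 gave 0.83 ± 0.27 with an adjusted p of 0.0808.

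The TrkC sign difference of the double mutant was unlike that of wild type. In NT3-/-;Bax-/- ganglia, 10 probe sets were higher and 8 lower in TrkC+ cells (25.4% beside 19.3% of all, of which 10.4% higher and 8.94% lower). Kcnk1 remained 1.38 higher in TrkC+ cells (adjusted p = 0.0214), a call lost without the first TrkC+ or the second TrkC- array. Kcnt1 was 2.28 higher (adjusted p = 0.000847), with 9.21 and 8.91 in TrkC+ and 7.55 and 6.01 in TrkC- arrays, the opposite of its order in wild type. Kcnj10 (-2.48), Kcnj8 (-2.28) and Kcnk6 (-1.94) were lower in the TrkC+ cells, on the TrkC- arrays already described. The proprioceptor sum was 4645 to 6571 in the TrkC+ and 1096 to 1424 in the TrkC- arrays of this genotype. Its part in these sign differences was not tested.

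Surplus muscle NT3 left every channel probe set short of the adjusted threshold. In mlcNT3 against wild-type TrkC+ cells, limma called 0 of 71 members (0.209% of all probe sets). At an unadjusted p under 0.05 there were 7 members (5.91% of all), and by the methods' t-test 3 (1.12% of all). That test required p up to 0.02 and at least 1.5-fold here, and 2-fold for the TrkC sign, NT3 loss and Bax loss. In TrkC- cells limma called 0 members (0.00444% of all). There 1 had an unadjusted p under 0.05 (7.12% of all) and 0 passed the methods' t-test (0.642% of all). Kcnmb4 was at 8.68 and 8.43 in mlcNT3 TrkC+ arrays and 9.58 and 9.26 in wild type (-0.86 ± 0.19, adjusted p = 0.143), and Kcnmb4os2 at 6.15 and 6.10 against 6.93 and 6.93 (-0.81 ± 0.18, adjusted p = 0.134). Kcnk10 was at 10.40 and 9.93 against 9.14 and 9.05 (1.07 ± 0.33, adjusted p = 0.421), and its second probe set gave 0.95 (adjusted p = 0.127). For these genes the arrays of the groups did not overlap. With 2 arrays a group, that also held for Kcnk12, at a difference of -0.08 (unadjusted p = 0.731 in limma), so it adds no support.

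Set in order, the TrkC+ arrays of Kcnmb4 ran from mlcNT3 (8.43 to 8.68) through wild type (9.26 to 9.58) and Bax-/- (9.92 to 10.35) to NT3-/-;Bax-/- (11.07 to 11.10), with no overlap between neighbours. Of the 3 steps, the last passed the adjusted threshold (0.95). The step from wild type to Bax-/-, which alters Bax and not NT3, was 0.71 (limma adjusted p = 0.139). In the separate wild-type sorts, the TrkC+ arrays were at 10.06 to 10.12 at L1, inside the Bax-/- range, and at 9.45 to 9.68 at L5. The order was set by the values themselves, and the share of all probe sets with it or its reverse was not tested. The order is therefore not shown to follow NT3 supply. Kcnmb4os2 had the same order, from 6.10 and 6.15 through 6.93 in both wild-type arrays and 7.33 and 7.76 to 9.17 and 9.36. In the TrkC- arrays of the same genotypes, Kcnmb4 stayed between 9.81 and 10.24 and Kcnmb4os2 between 6.99 and 7.52, where wild type (7.41 and 7.52) lay above the rest. Kcnk10 ran the other way in TrkC+ cells, from 6.58 and 7.54 in NT3-/-;Bax-/- through 7.96 and 8.55 in Bax-/- and 9.05 and 9.14 in wild type to 9.93 and 10.40 in mlcNT3.

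Kcnk2 and Kcnt2 did not follow such an order. Kcnt2, below the array median in the TrkC+ cells of every genotype, was lower in mlcNT3 than in wild type (-1.07 ± 0.31, limma adjusted p = 0.351). It also fell without NT3 (-2.25). Kcnk2 was at 9.12 and 9.10 in mlcNT3 TrkC+ arrays, above wild type (8.26 and 8.03), and was highest without NT3. Its 2 NT3 manipulations thus lay on the same side of their controls. The mlcNT3 difference of 0.96 for Kcnk2 had an adjusted p of 0.421. Kcnk1 was at 10.57 and 10.44 in mlcNT3 TrkC+ arrays, overlapping the wild-type arrays. Loss of Bax alone called 0 of 71 members in limma in TrkC+ cells (0.5% of all) and 0 in TrkC- cells (0.178% of all). At an unadjusted p under 0.05 there were 9 and 8 members (12.9% and 10.5% of all). The methods' t-test passed 0 and 1 (0.404% and 0.409% of all). Without the first Bax-/- TrkC+ array, 2 passed in TrkC+ cells.

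Between newborn L5 and L1 TrkC+ cells, limma called 0 of 71 members (0.397% of all). Among them 16 had an unadjusted p under 0.05 (9.39% of all), and 2 passed the methods' t-test (0.881% of all). Without either of the later 2 L5 TrkC+ arrays, 1 passed. The values with the smallest unadjusted p were those of a Kcnma1 probe set (0.80 higher at L5, adjusted p = 0.0892), a dim Kcnk3 probe set (0.71, adjusted p = 0.102) and Kcnmb4 (-0.53, adjusted p = 0.112). Kcnt2 differed by -1.71 (adjusted p = 0.218). In TrkC- cells, 0 members passed between the levels (0.16% of all). There were 5 at an unadjusted p under 0.05 (5.3% of all) and 0 by the methods' t-test (0.806% of all).

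In adult ganglia of mice without a wheel, most of the channel probe sets that passed the test were lower at L5 than at L1. Of 71 probe sets, 2 were higher and 10 lower at L5, or 16.9% beside 4.68% of all (1.92% higher and 2.76% lower). The median log2 difference was 0.00 over the channel probe sets and -0.01 over all probe sets. Without the third L5 array, 7 passed. Kcnk2 led the decreases, with 10.08, 10.41 and 10.13 at L1 and 9.29, 9.13 and 9.13 at L5 (-1.02 ± 0.12, n = 3 arrays a group, adjusted p = 0.000265). Kcnn1 was at 7.86, 7.98 and 8.06 against 7.48, 7.09 and 7.13 (-0.73 ± 0.13, adjusted p = 0.00419), with -0.42 on its second probe set (adjusted p = 0.0522). Every L5 array lay below every L1 array in both genes.

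Other leak channels that fell at L5 without a wheel were Kcnk3 (-0.64), Kcnk13 (-0.57), Kcnk4 (-0.53) and Kcnk12 (-0.40), with adjusted p from 0.00726 to 0.0344. The other probe sets of Kcnk3 (0.05 and -0.13) and Kcnk13 (-0.13), all below the array median, were not called. Both probe sets of Kcnmb2 fell (-0.57 and -0.42), as did the probe sets of Kcnt1 other than the standing one (-0.43 and -0.34). Kcnj14, a strong inward rectifier first known from motor neurons, was higher at L5 by 0.56, below the array median in both groups. Kcnk12 lost significance on leaving out each of 5 of 12 arrays, the standing Kcnmb2 probe set on each of 4 and Kcnj14 without the third L5 array. The proprioceptor marker sum was 2515 to 3173 at L5 and 1604 to 1742 at L1, and the macrophage sum 2977 to 5180 at L5 and 2385 to 2855 at L1. The glial sum was 27200 to 28370 at L5 and 22520 to 25850 at L1, and the fibroblast sum 9058 to 13000 and 8243 to 8768. The neuronal, nociceptor, cutaneous mechanoreceptor, endothelial and mural sums overlapped between the levels. The part of these cells in the channel differences was not tested.

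With a running wheel, 3 probe sets were higher and 2 lower at L5 (7.04% beside 5.43% of all, of which 3.26% higher and 2.17% lower). Kcnk2 was at 10.39, 9.89 and 10.21 at L1 and 9.26, 9.46 and 9.41 at L5 (-0.79 ± 0.12, adjusted p = 0.00133), without overlap. Kcnn1 differed by -0.46 (adjusted p = 0.0479), a call lost on leaving out each of 9 of 12 arrays, and Kcnn4 by 0.39 (adjusted p = 0.0462), lost on each of 8. The second probe set of Kcnk1 was 0.91 higher at L5 (adjusted p = 0.00752). The bright Kcnk1 probe set was at 10.32 to 10.73 in the L1 and 10.55 to 11.06 in the L5 adult arrays and was not called. In turn, 2 of 71 probe sets passed without any 1 of the L5 wheel arrays or without the first or second L1 wheel array, and 3 without the second or the third L1 array from mice without a wheel. With the wheel, the proprioceptor sum was 2894 to 3199 at L5 and 1763 to 1800 at L1. The macrophage sum was 2597 to 3024 and 2150 to 2559, and the mural sum 2974 to 3074 and 3117 to 3581. Their part in the channel differences was not tested.

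**Figure D5:**
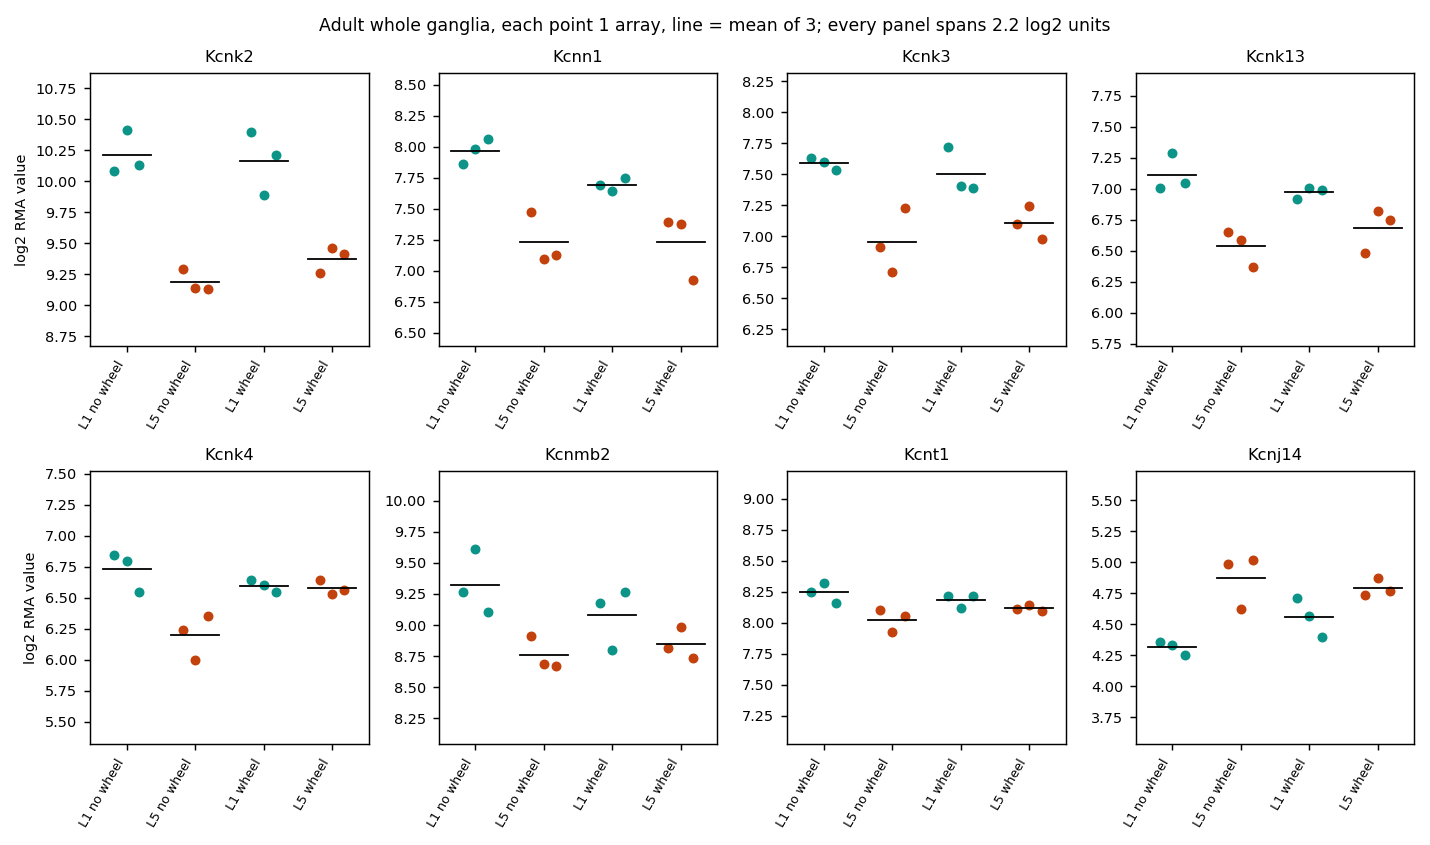
Log2 value (vertical axis, 2.2 units in each panel) of 8 channel genes in the 12 adult whole-ganglion arrays, by level and wheel; points are arrays and lines the mean of the 3 arrays of a group. Kcnk2 lies at 9.89 to 10.41 in all L1 arrays and 9.13 to 9.46 in all L5 arrays.

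Running itself gave no channel call. The wheel comparison called 0 of 71 members in limma at L1 (0.242% of all) and 0 at L5 (0.48% of all). At an unadjusted p under 0.05 there were 8 and 14 members (11.7% and 16.4% of all). The methods' t-test passed 0 at either level (0.26% and 0.264% of all). At L5 the values nearest the threshold were Kcnk10 (0.54 ± 0.12 higher with the wheel, adjusted p = 0.0518), a Kcnn4 probe set (0.57, adjusted p = 0.0581) and the second Kcnk1 probe set (0.77, adjusted p = 0.0646). At L5, 6 members passed without the first array from mice without a wheel, 2 without the first L1 array from such mice, and 1 without either the first L1 wheel array or the third L5 array from mice without a wheel. The test of the difference between the wheel effects at the levels called 0 members (0% of all). At an unadjusted p under 0.05 it had 8 members (11.5% of all).

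Age and preparation differed together between the newborn sorted cells and the adult whole ganglia, so those levels are given side by side only. Kcnmb1 was at 3.77 to 6.11 in the newborn arrays and 8.90 to 9.57 in the adult arrays, and Kcnj13 at 4.52 to 6.35 and 7.36 to 8.57. The members below the array median throughout included the strong inward rectifier Kcnj2, whose highest group mean was 3.33.

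Partner proteins of these channels moved in both directions. Among 19 measured of 25 listed partners, 2 were higher and 2 lower in wild-type TrkC+ cells, where 8.95% of all probe sets passed: the anchoring protein Akap5 (1.19) and the scaffold Dlg1 (1.01) were higher, and the sulfonylurea receptor Abcc8 (-1.55) and the G protein subunit Gnb2 (-0.70) lower. In TrkC+ cells without NT3, against Bax-/-, 1 partner was higher and 4 lower (18.2% of all probe sets passed), among them Akap5 (-1.24) and S100a10 (-1.21), which binds K2P channels at the membrane. In TrkC- cells, 2 were higher and 4 lower (21.7% of all), and Abcc8 fell by 1.89. The median partner differences were 0.00, -0.10 and -0.08, beside -0.07, 0.01 and 0.01 over all probe sets.

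Of 6 measured of 9 listed genes for the sodium leak channel complex and the sodium pump, 1 was higher and 1 lower in wild-type TrkC+ cells, beside 8.95% of all probe sets. Unc80, part of the sodium leak complex, was 2.08 higher, with 1.38 at L1 and 1.65 at L5, and Atp1b3, a beta subunit of the pump, 1.61 lower, with -2.33 and -2.06. With NT3 loss, against Bax-/-, Atp1b2 rose by 0.90 in TrkC- cells and Atp1b3 fell by 1.95, or 2 of 6 beside 21.7% of all probe sets.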

How the data were processed

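Gene expression was measured on 39 single-colour Affymetrix arrays. According to the methods and the labels' processing notes, the authors read the scans into R 2.9 with affy, normalised them with RMA and made MAS5 present calls; the deposited values are linear RMA intensities, of which log2 was taken here without a pseudocount. Probe sets are named from the platform annotation: 34958 name 1 gene and 932 several, and none of the latter was used. After 64 control probe sets were left out of 45101, 45037 were fitted with group means in limma 3.58.1 (R 4.3.3), in separate fits for the 16 pooled newborn, 11 L1 and L5 newborn and 12 adult arrays, with Benjamini-Hochberg adjustment over all of them and calls at an adjusted p under 0.05. All fold changes are differences of log2 values. RMA shrinks differences of dim probe sets, and the number of arrays limits precision. Marker sums add linear values, 1 probe set a gene.

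A gene was described with its array values where its standing probe set was called in at least 1 comparison, up to the 10 of largest difference in each; other members are given by counts. The members and lists were chosen with earlier results of these data known. The methods' t-test was run on the same values at p up to 0.02 and at least 2-fold for the TrkC sign, NT3 loss and Bax loss, and at least 1.5-fold for mlcNT3, the levels and the wheel. Alternatives were quantile and 75th percentile scaling, log2(value + 16), a filter on dim probe sets, another rule for the standing probe set, the replicate number as a block and leaving out each array. The fit was tested on simulated data. Of 39 member genes, 32 matched RefSeq promoters. Gene lists marked proprioceptors, nociceptors, cutaneous mechanoreceptors, neurons, glia, endothelium, mural cells, fibroblasts and macrophages.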

Additional observations from a re-analysis of the deposited data

Results flagged for a closer look

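For 12 genes, the effect of NT3 loss (NT3-/-;Bax-/- against Bax-/-) differed between TrkC+ and TrkC- cells by the interaction term of the limma fit over the 16 pooled newborn arrays, at an adjusted p under 0.05 over all probe sets. The values below are the TrkC+ effect minus the TrkC- effect on the log2 scale.

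The value was positive for Kcnt1 at 4.28 (adjusted p = 0.000361), Kcnk12 at 3.30 (adjusted p = 0.00015), Kcnmb4os2 at 1.75 (adjusted p = 0.00114) and Kcnk2 at 1.70 (adjusted p = 0.0243). Kcnmb1, below the array median in these cells, added 1.69 (adjusted p = 0.0104), or 1.03 (adjusted p = 0.0503) on the probe set brightest in these arrays. For Kcnt1, Kcnk12 and Kcnmb1 the effect in TrkC- cells was a fall, of -3.74, -3.25 and -1.75, and for Kcnmb4os2 and Kcnk2 the effect in TrkC+ cells was a rise, of 1.72 and 2.13. The Kcnk2 value lost significance on leaving out each of 4 of the 16 arrays, up to an adjusted p of 0.0939.

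The value was negative for Kcnk1 at -3.11 (adjusted p = 0.00307), Kcnn4 at -2.72 (adjusted p = 0.00775), Kcnj8 at -2.62 (adjusted p = 0.0151), Kcnk6 at -2.25 (adjusted p = 0.0121), Kcnj10 at -2.08 (adjusted p = 0.00414), Kcnj13 at -1.18 (adjusted p = 0.0214) and Kcnk3 at -1.01 (adjusted p = 0.0413). Kcnn4 went opposite ways, by -1.41 in TrkC+ and 1.31 in TrkC- cells. Kcnj13 lost significance on leaving out each of 4 of the 16 arrays, Kcnj8 without the second Bax-/- TrkC- array, and Kcnk3 on leaving out each of 14.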

How the results depend on the processing

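No result changed direction under the alternatives run. Quantile and 75th percentile scaling kept every count of members called within 1.5 times of the value reported. The methods' t-test does not pool the spread over groups. Its counts follow, each with the share of all probe sets. It called 5 members (3.38%) for the TrkC sign in NT3-/-;Bax-/- cells and 8 (6.77%) for the sign at L5. For NT3 loss in TrkC+ cells it called 3 (2.73%) against Bax-/- and 8 (7.19%) against wild type, and in TrkC- cells 5 (3.38%). Between adult levels it called 3 (1.09%) without and 2 (1.93%) with a wheel. It called 3 (1.12%) for mlcNT3 and 2 (0.881%) for L5 against L1 in TrkC+ cells, and 1 (0.409%) for Bax loss in TrkC- cells. After Benjamini-Hochberg adjustment it called 0 in the pooled newborn and adult comparisons in which limma made calls, and 8 for the sign at L1 and 8 at L5. With log2(value + 16), or with dim probe sets left out, 1 member passed between L5 and L1 TrkC+ cells, and with the latter 3 passed for the wheel at L5. Taking the probe set brightest in each fit ended the Kcnmb1 call in wild type (-0.67, adjusted p = 0.0736) and both Kcnn1 calls in the adult (-0.42, adjusted p = 0.0522, and -0.15, adjusted p = 0.541).

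Leaving out each array in turn gave 10 to 12 calls for the sign in wild type, 15 to 18 in NT3-/-;Bax-/-, 14 to 17 at L1 and 14 to 17 at L5. It gave 8 to 18 and 14 to 21 for NT3 loss in TrkC+ cells against Bax-/- and wild type, 15 to 23 in TrkC- cells and 10 to 16 for their difference. For Bax loss in TrkC+ cells it gave 0 to 2, for L5 against L1 TrkC+ cells 0 to 1, for adult levels 7 to 14 without and 2 to 7 with a wheel, and for the wheel at L5 0 to 6. A group of 2 then rests on 1 array that is assumed to vary like the other groups.

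With the replicate number as a block, the counts were 12 and 19 for the sign in wild type and NT3-/-;Bax-/-, 17 and 18 for NT3 loss in TrkC+ cells, 21 in TrkC- cells and 15 for their difference, 16 and 19 at L1 and L5, and 13 and 4 between adult levels; among the genes named, the block ended the Kcnn1 call in the adult with a wheel (adjusted p = 0.0609). Deviations of TrkC+ and TrkC- arrays with the same number correlated at 0.197 in wild type, 0.283 in Bax-/-, 0.158 in NT3-/-;Bax-/- and 0.00768 in mlcNT3, and at 0.0849 to 0.203 at L5. Not every pair was above 0.1 and the labels do not tie the numbers to animals, so pairing was neither established nor assumed.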
